A study of Mus musculus with 6 samples.

Results

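The 9 genes described here belong to glucose synthesis and glucose phosphate turnover, to the opposing breakdown of glucose, or to the regulation of these steps. They are G6pc, its functional partner Slc37a4, its paralog G6pc3 and the gluconeogenic enzyme genes Pck1, Fbp1 and Pcx. The others are the glycolytic enzyme gene Pklr, the regulatory protein gene Gckr and the coactivator gene Ppargc1a. All were found by gene symbol among the 16331 gene probe sets of the array, and 9 of 9 had a probe set. The genes were selected on values of the KO against WT comparison itself, in which G6pc had the smallest p of all probe sets. Their values in this comparison are therefore a description, and no test of them is offered as evidence.

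The study measured expression on Affymetrix arrays in 3 mouse liver samples deficient in Ugcg (called KO after the sample titles, arrays 427, 429 and 431) and 3 wildtype liver samples (WT, arrays 426, 428 and 430). Ugcg encodes glucosylceramide synthase, which joins glucose to ceramide at the start of glycosphingolipid synthesis. How Ugcg was inactivated and in which cells, and the strain, age, sex, diet and feeding state of the mice, are not stated in the labels. Nothing in the labels says that each array is a separate animal, so the spread between arrays may be technical. In whole liver, fewer cells of a type and less RNA per cell cannot be told apart. All levels are log2 expression values, 1 per gene and array, and all differences are KO minus WT on that scale. Levels of different probe sets are not comparable with each other.

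The tissue label was checked with 9 measured hepatocyte markers, among them the albumin and transferrin genes, whose mean per array lay between 14.03 and 14.05 on the KO arrays and between 14.03 and 14.05 on the WT arrays. The Ugcg probe set read 7.12, 6.70 and 6.68 on KO arrays 427, 429 and 431, against 6.81, 6.85 and 6.87 on WT arrays 426, 428 and 430. The groups overlapped (difference -0.01, SE 0.12), so the genotype labels could not be checked from this transcript. Array medians ran from 6.79 to 6.81 and correlations between arrays across probe sets from 0.988 to 0.994. One WT array, 430, held transcripts of exocrine pancreas: its mean over 9 such markers was 9.34, where the 3 KO arrays had 6.23 to 6.41 and the other WT arrays 6.33 and 6.35. KO 427 was highest in 5 skeletal muscle markers (mean 7.08, against 6.21 to 6.31 on the other arrays) and KO 431 in 5 adipose markers (6.80, against 6.12 to 6.26).

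Gluconeogenesis makes glucose from lactate, amino acids and glycerol, mainly in liver during fasting. Pyruvate is carboxylated in mitochondria, turned into phosphoenolpyruvate, carried up the reversed glycolytic route to fructose 6-phosphate and glucose 6-phosphate, and finally dephosphorylated inside the endoplasmic reticulum so that free glucose can leave the cell. The last step needs a transporter that brings glucose 6-phosphate into that compartment and a phosphatase that cleaves it there. Glucagon, glucocorticoids and low insulin raise transcription of the gluconeogenic genes, whereas insulin and glucose favour the glycolytic enzymes, such as pyruvate kinase, which run the other way.

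The promoters of 3 of the genes are shown because they stand for the 3 patterns described next, G6pc with separated groups, its paralog G6pc3 with a difference near 0, and Pck1 with a positive difference but overlapping groups. Each is the RefSeq window from 250 bases before to 50 after the annotated start, on build GRCm38.p6 and the plus strand, written 5′ to 3′ at chr11:101367466-101367765 for G6pc, chr11:102189449-102189748 for G6pc3 and chr2:173152823-173153122 for Pck1. Capitals mark matches, on either strand, to the motifs TGTTTAC (forkhead), TGTTTTG (core of the insulin response element), TGACG (part of a cAMP response element), GTTAAT (part of an HNF1 site), CAAAGT (part of an HNF4 site), CACGTG (E box), CCAAT and TATAAA.
G6pc: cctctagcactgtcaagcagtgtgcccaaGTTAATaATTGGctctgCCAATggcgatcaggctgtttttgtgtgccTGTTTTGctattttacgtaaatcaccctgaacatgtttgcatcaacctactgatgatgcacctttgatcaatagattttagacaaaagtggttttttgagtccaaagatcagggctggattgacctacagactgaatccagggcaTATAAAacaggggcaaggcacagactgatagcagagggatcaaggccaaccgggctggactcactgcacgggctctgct
G6pc3: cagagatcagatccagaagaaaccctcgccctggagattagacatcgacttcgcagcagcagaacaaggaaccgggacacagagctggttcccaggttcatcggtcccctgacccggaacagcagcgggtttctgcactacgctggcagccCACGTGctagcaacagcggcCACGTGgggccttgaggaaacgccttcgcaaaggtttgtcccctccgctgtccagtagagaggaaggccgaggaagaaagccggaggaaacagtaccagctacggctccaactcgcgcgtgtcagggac
Pck1: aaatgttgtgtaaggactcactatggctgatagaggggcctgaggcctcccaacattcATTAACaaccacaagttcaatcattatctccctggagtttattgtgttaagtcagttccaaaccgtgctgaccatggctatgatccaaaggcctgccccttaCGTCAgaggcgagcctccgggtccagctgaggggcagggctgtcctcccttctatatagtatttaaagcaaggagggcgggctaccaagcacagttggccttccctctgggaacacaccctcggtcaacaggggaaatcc

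The G6pc window held TGTTTTG at positions -174 to -168 from the start, GTTAAT at -221 to -216, CCAAT on both strands, and TATAAA at -29 to -24. The G6pc3 window held CACGTG at -99 to -94 and again at -79 to -74, and no TATAAA. The Pck1 window held TGACG on the minus strand at -90 to -86 and GTTAAT on the minus strand at -192 to -187. All 9 genes had at least 1 window in the RefSeq table, 13 in all, since Slc37a4, Pcx and Pklr have several annotated starts. TGTTTTG occurred in windows of G6pc and Gckr, against 6.28% of 32851 windows of all genes. GTTAAT occurred in those of G6pc, Pck1 and Gckr (7.1% of all windows), and TGACG in those of Slc37a4, Pck1 and Ppargc1a (20.8%). CACGTG was found for G6pc3 and Pcx (7.15%), CAAAGT for Pcx and Pklr (14.4%), CCAAT for G6pc, Fbp1, Pcx, Pklr and Gckr (37.4%), and TATAAA for G6pc, Slc37a4 and Pklr (13.6%). TGTTTAC was in no window of the 9 genes (3.65%). A match only says that these letters occur there.

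Of the 9 genes, 1 (G6pc) was higher in KO livers at a limma adjusted p under 0.05, where 0.0122% of all probe sets were called higher and 0.0245% in either direction. Its groups were also the only ones among the 9 that did not overlap, where 5.1% of all probe sets had every KO array above every WT array and 4.47% every KO array below, 9.57% in all. In 5 of 9 the difference was above 0 and in 4 below, and its median over the 9 was 0.0065, beside 0.0059 over all 16331 probe sets, of which 52.5% lay above 0. For 5 of the 9 the 95% interval of the difference spanned 0. These intervals, here and below, are not adjusted for the number of probe sets. Since this contrast chose the genes, nothing is read from these counts.

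**Figure D1:**
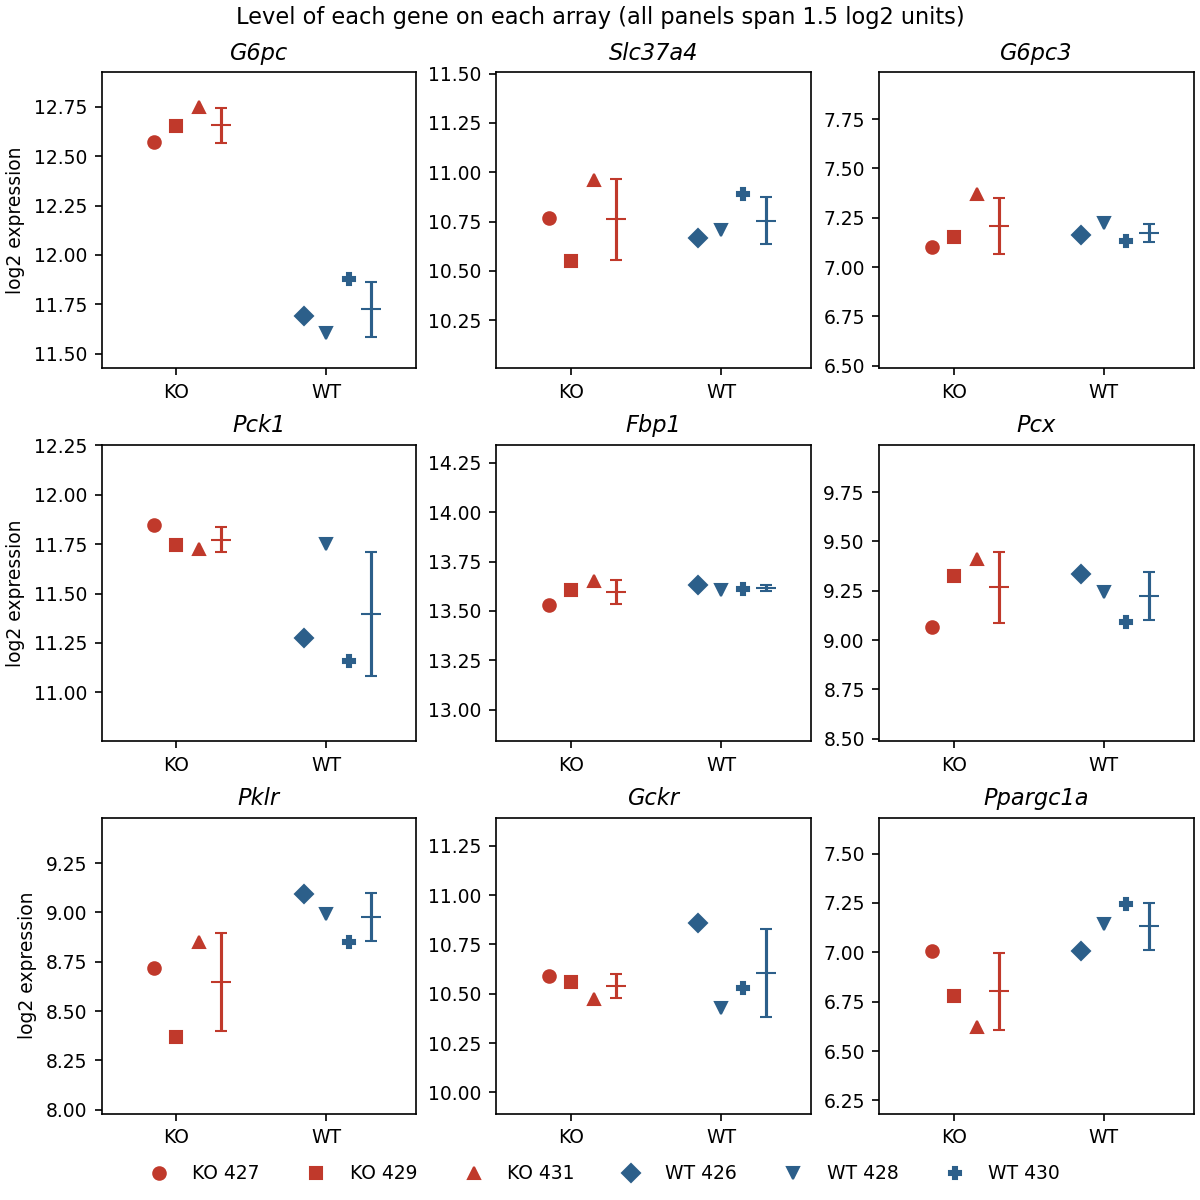
Level of each of the 9 genes (log2 expression, vertical axis, 1.5 log2 units in every panel) on 3 KO arrays (red, left) and 3 WT arrays (blue, right); each symbol is 1 array, and the bar beside each group is its mean and SD. The G6pc levels on the KO arrays (12.57 to 12.75) lie above those on the WT arrays (11.60 to 11.88), and in the other 8 panels the groups overlap.

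G6pc, the glucose-6-phosphatase of liver, kidney and intestine, read 12.57, 12.65 and 12.75 on KO arrays 427, 429 and 431, against 11.69, 11.60 and 11.88 on WT arrays 426, 428 and 430. The lowest KO array lay 0.70 above the highest WT array, a gap wider than the range of either group (0.18 in KO and 0.27 in WT). The means were 12.66 ± 0.09 in KO and 11.72 ± 0.14 in WT (SD, n = 3 each), a difference of 0.93 (SE 0.09, 95% interval 0.73 to 1.14) or 1.91-fold. This value, with a limma adjusted p of 0.0379, is the one that led to the choice of the 9 genes. Only 19 probe sets of 16331 had a larger difference in either direction. The spread within groups was ordinary, since 60.4% of probe sets had a smaller pooled SD.

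The G6pc difference stayed between 0.87 and 1.01 when any 1 array was left out. The adjusted p, however, was above 0.05 in 5 of those 6 fits, and under 0.05 without WT 430, the array with pancreatic transcripts, where the difference was 1.01. WT 430 had the highest G6pc level of the WT arrays. Kidney and intestine, the other tissues that use G6pc, were judged by their markers. The mean of 7 kidney tubule markers was 6.25 to 6.26 in KO and 6.24 to 6.28 in WT, and that of 5 intestinal markers was 6.79 to 6.93 in KO and 6.88 to 6.92 in WT. The summed linear level of the kidney markers was 554 to 559 in KO and 549 to 568 in WT, and that of the intestinal markers was 913 to 1253 in KO and 982 to 1261 in WT. Both lists overlapped between the groups. Any part of these tissues in the G6pc values was not tested.

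Slc37a4 encodes the transporter that delivers glucose 6-phosphate to the phosphatase, and the pair works as a unit. Its level was 10.77, 10.55 and 10.96 on KO arrays 427, 429 and 431, against 10.67, 10.71 and 10.89 on WT arrays 426, 428 and 430. The KO arrays held both the highest and the lowest value, and the difference was 0.01 (SE 0.11, 95% interval -0.25 to 0.26). The sign turned without KO 431 (-0.09), without WT 426 (-0.04) or without WT 428 (-0.02).

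G6pc3, the paralog of G6pc that is active in most tissues and is known for its role in neutrophils, read 7.10, 7.15 and 7.37 on KO arrays 427, 429 and 431, against 7.16, 7.22 and 7.13 on WT arrays 426, 428 and 430. Of the KO arrays, 431 lay above all WT arrays while 427 lay below them. The difference was 0.04 (SE 0.09, 95% interval -0.16 to 0.23), and -0.04 without KO 431. G6pc2, the islet paralog, read 5.69, 5.72 and 5.58 in KO and 5.73, 5.79 and 5.79 in WT (difference -0.11, SE 0.07), near the lowest reading of the table, 5.38.

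Pck1, the cytosolic enzyme that makes phosphoenolpyruvate from oxaloacetate, had the second-largest positive difference of the 9. It read 11.85, 11.75 and 11.73 on KO arrays 427, 429 and 431, against 11.27, 11.75 and 11.16 on WT arrays 426, 428 and 430. The KO arrays were close together, and WT 428 lay among them. The means were 11.77 ± 0.06 in KO and 11.40 ± 0.31 in WT (SD, n = 3 each). Their difference was 0.38 (SE 0.14, 95% interval 0.06 to 0.69, limma adjusted p = 0.951). The pooled SD of Pck1 was larger than that of 94.0% of probe sets, and the difference ran from 0.26 without WT 430 to 0.56 without WT 428. Pck1 is also expressed in adipose tissue. KO 431 was the array with the highest adipose markers (summed level 358 to 575 in KO and 351 to 407 in WT). It had the lowest Pck1 level of the KO arrays, and the Pck1 difference without KO 431 was 0.40. Any part of adipose transcripts in the Pck1 values was not tested.

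Fbp1, the phosphatase that turns fructose 1,6-bisphosphate into fructose 6-phosphate, was the steadiest of the 9. It read 13.53, 13.60 and 13.65 on KO arrays 427, 429 and 431, against 13.63, 13.61 and 13.61 on WT arrays 426, 428 and 430. Its pooled SD of 0.045 was larger than that of 6.09% of probe sets, and the difference was -0.02 (SE 0.07, 95% interval -0.18 to 0.13). The sign turned to 0.01 without KO 427.

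Pcx, the mitochondrial enzyme that carboxylates pyruvate, read 9.06, 9.32 and 9.41 on KO arrays 427, 429 and 431, against 9.33, 9.24 and 9.09 on WT arrays 426, 428 and 430. The lowest and the highest value were both on KO arrays. The difference was 0.04 (SE 0.11, 95% interval -0.20 to 0.28), and it turned to -0.03 without KO 431 and -0.02 without WT 430.

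In the opposing direction, Pklr encodes the pyruvate kinase of liver and red blood cells, the last step of glycolysis. It read 8.72, 8.37 and 8.85 on KO arrays 427, 429 and 431, against 9.09, 8.99 and 8.85 on WT arrays 426, 428 and 430. KO 427 and KO 429 lay below all WT arrays, and KO 431 lay just above WT 430. The difference was -0.33 (SE 0.12, 95% interval -0.62 to -0.05, limma adjusted p = 0.952), and -0.19 without KO 429. Of 3 measured red blood cell markers none had a difference above 0, and the median difference was -0.02. Their mean was 7.35 to 7.44 in KO and 7.43 to 7.54 in WT. Any part of red blood cell transcripts in the Pklr values was not tested.

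Gckr, a regulatory protein of glucose phosphorylation in the hepatocyte, read 10.59, 10.56 and 10.47 on KO arrays 427, 429 and 431, against 10.86, 10.43 and 10.53 on WT arrays 426, 428 and 430. The WT arrays held both extremes, and the difference was -0.06 (SE 0.11, 95% interval -0.31 to 0.19). It turned to 0.06 without WT 426.

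Ppargc1a encodes PGC-1alpha, a coactivator that drives G6pc and Pck1 transcription in fasted liver together with HNF4A and FOXO1. It read 7.01, 6.78 and 6.62 on KO arrays 427, 429 and 431, against 7.01, 7.14 and 7.25 on WT arrays 426, 428 and 430. KO 427 and WT 426 had the same value, and every other KO array lay below every WT array. The difference was -0.33 (SE 0.11, 95% interval -0.58 to -0.08, limma adjusted p = 0.951), opposite in sign to those of G6pc and Pck1. Ppargc1a is also a muscle gene, and KO 427, which held the skeletal muscle transcripts (summed level 382 to 812 in KO and 380.2 to 409.6 in WT), had the highest Ppargc1a level of the KO arrays. Without KO 427 the difference was -0.43. Any part of muscle transcripts in the Ppargc1a values was not tested.

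**Figure D2:**
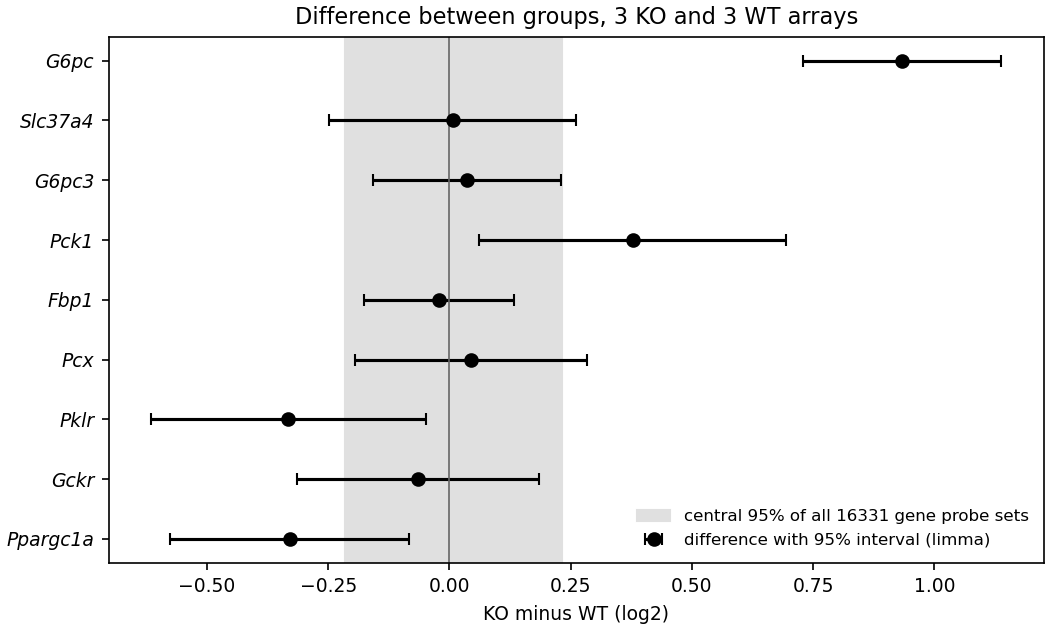
KO minus WT difference (log2, horizontal axis) for each of the 9 genes, as a point with its 95% interval from limma; the grey band holds the central 95% of the differences of all gene probe sets, from -0.21 to 0.23. G6pc (0.93) and Pck1 (0.38) lie to the right of the band, Pklr (-0.33) and Ppargc1a (-0.33) to its left, and the other 5 genes within it. The intervals are not adjusted for the number of probe sets.

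The 9 genes did not rank the arrays alike. KO 431 had the highest level for 5 genes (G6pc, Slc37a4, G6pc3, Fbp1 and Pcx), and KO 427 had the lowest for 3 of them (G6pc3, Fbp1 and Pcx). WT 426 was highest for Pklr and Gckr, and WT 430 for Ppargc1a. For Ppargc1a the order within KO ran the other way from G6pc, with KO 427 highest and KO 431 lowest.

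G6pc was next set against each of the other 8 genes on the same array, as a difference of log2 levels. All 8 ratios contain G6pc, whose difference was used to choose the genes, so their separation is largely fixed by that choice, and they are a description only. Relative to Slc37a4, G6pc was higher by 0.93 in KO (SE 0.11), with ratios of 1.80, 2.10 and 1.79 on KO arrays 427, 429 and 431, against 1.03, 0.90 and 0.99 on WT arrays 426, 428 and 430. This amounts to 1.90 times as much phosphatase transcript per transporter transcript in KO as in WT. The change was 0.90 relative to G6pc3, 0.96 relative to Fbp1, 0.89 relative to Pcx and 0.998 relative to Gckr, with SEs from 0.08 to 0.17.

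The change was 1.27 relative to Pklr (SE 0.20, 2.40-fold) and 1.26 relative to Ppargc1a (SE 0.18, 2.40-fold). Relative to Pck1 it was 0.56 (SE 0.27, 1.47-fold), and 0.32 without WT 428, with ratios of 0.73, 0.91 and 1.02 in KO and 0.42, -0.15 and 0.72 in WT. In all 8 ratios every KO array lay above every WT array. For Pck1 the lowest KO ratio, on KO 427, and the highest WT ratio, on WT 430, were close at 0.727 and 0.717.

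**Figure D3:**
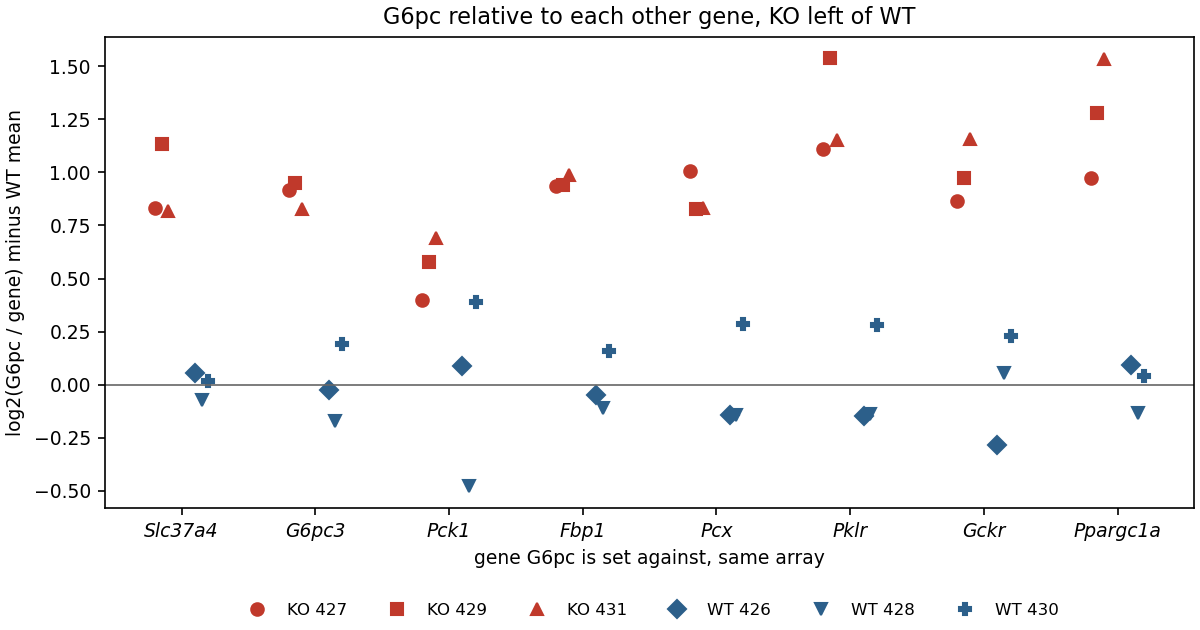
Log2 ratio of G6pc to each of the other 8 genes on the same array, shown relative to the WT mean of that ratio (vertical axis, log2), with KO arrays in red left of WT arrays in blue; each symbol is 1 array. All KO points lie above all WT points for each gene, by the least for Pck1.

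The levels of G6pc over the 6 arrays were also compared with those of 15514 other named genes by Pearson's r. The genes most like G6pc were Ska3 (0.996), Gna11 (0.993), Nubp1 (0.991), Acad11 (0.987) and Slfn4 (0.986). Their differences were smaller than that of G6pc, from 0.09 for Acad11 to 0.24 for Slfn4, and none passed in limma (adjusted p from 0.888 to 0.982). With 6 arrays in 2 groups r mostly records the group difference, and 124 genes had an r above 0.9. Of the 9 genes, Pck1 came nearest (r = 0.59, with 1778 genes higher), and Pklr (-0.72) and Ppargc1a (-0.79) ran opposite to G6pc.

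Genes around the 9 were described by 10 lists that leave the 9 out. None of their 161 measured genes passed limma's adjusted p under 0.05, in a comparison that called 0.0245% of all probe sets. At an unadjusted limma p under 0.05 the lists held 19 genes, 13 with a positive and 6 with a negative difference. This was 11.8%, beside 4.99% of all probe sets. The lists were chosen with earlier results of these data known, so nothing is read from this share or from shares of single lists. The median difference over the 161 was 0.02, and 90 lay above 0 and 71 below. The values that follow are therefore given as differences, with no gene called. Of the 30 genes with the smallest p-values, 3 from each list, 15 changed in size by a factor above 1.5 on leaving out some array, among them Rpia, which turned to -0.0024 without KO 427, and Txnip, which turned to 0.02 without KO 431.

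**Figure D4:**
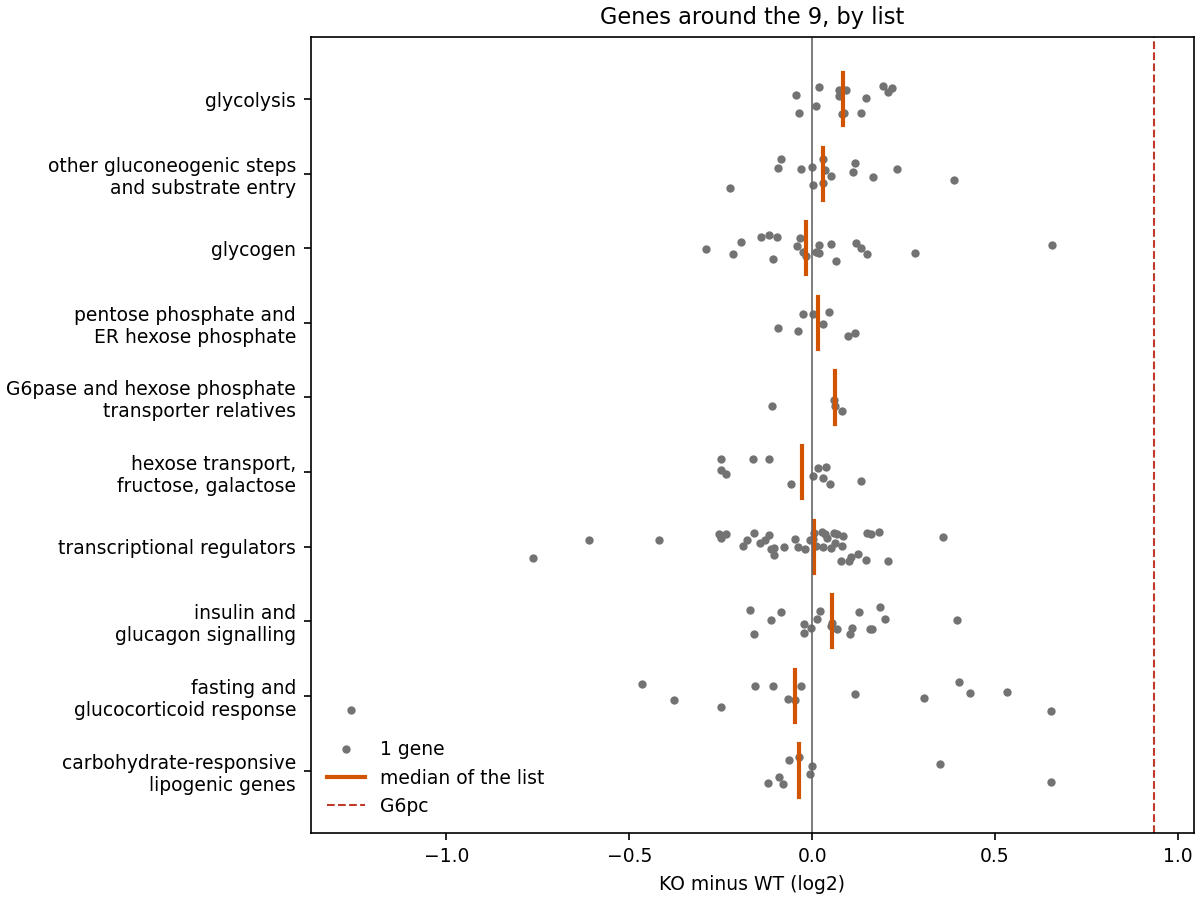
KO minus WT difference (log2, horizontal axis) of each measured gene of the 10 lists around the 9 genes (grey points, 1 gene each, spread vertically only to be seen), with the median of each list as an orange bar and G6pc as a dashed line at 0.93. List medians lie between -0.05 and 0.08, and no gene of the lists lies to the right of G6pc. On the left, Lpin1 (-1.26) lies further from 0 than G6pc.

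In glycolysis 12 of 14 measured genes were above 0, with a median of 0.08 and a range from -0.04 to 0.22. The 3 with the smallest p were Pkm, the pyruvate kinase of most tissues other than hepatocytes (0.22, SE 0.08), Pfkfb4, which makes and breaks fructose 2,6-bisphosphate (0.21, SE 0.08), and Aldoc, an aldolase (0.19, SE 0.11). Pfkfb4 means, 6.44 in KO and 6.23 in WT, lay below 6.51, the 40th percentile of the mean over all probe sets. Pkm read 7.71, 7.52 and 7.48 in KO and 7.43, 7.28 and 7.34 in WT, without overlap. The Pkm and Pklr differences had opposite signs. KO 427, the array with the muscle markers, had the highest Pkm level, and the Pkm difference without it was 0.15. Any part of muscle transcripts in the Pkm values was not tested.

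Of 15 measured genes of other gluconeogenic steps and substrate entry, 10 were above 0 (median 0.03). Got1, the cytosolic aspartate aminotransferase that helps carry oxaloacetate out of mitochondria, read 12.05, 11.93 and 12.07 in KO and 11.85, 11.41 and 11.63 in WT, a difference of 0.39 (SE 0.11, adjusted p = 0.888). Slc25a12, a mitochondrial aspartate and glutamate carrier (0.23, SE 0.08), and Mdh1, the cytosolic malate dehydrogenase (0.12, SE 0.07), also had all KO arrays above all WT arrays, which makes 3 of 15 without overlap, beside 9.57% of all probe sets. Pck2, the mitochondrial counterpart of Pck1, and Fbp2, the muscle counterpart of Fbp1, differed by -0.0015 and 0.03. Both read low, with KO means of 6.23 for Pck2 and 6.61 for Fbp2. The 40th percentile of the mean over all probe sets was 6.51, and a small difference at such levels says little.

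Of 21 glycogen genes 10 were above 0 and 11 below (median -0.02). Ppp1r3c, which brings protein phosphatase 1 to glycogen, had the largest difference, 0.65 (SE 0.19, adjusted p = 0.929), with 10.03, 10.16 and 9.42 in KO and 9.02, 9.15 and 9.47 in WT. KO 431 lay below WT 430, so the groups overlapped. Phkb, a regulatory subunit of phosphorylase kinase, differed by 0.28 (SE 0.10), and Pygl, the liver glycogen phosphorylase, by -0.19 (SE 0.09) with every KO array below every WT array. Among 8 genes of the pentose phosphate pathway and of hexose phosphate in the endoplasmic reticulum 5 were above 0, and the median was 0.02. The smallest p-values there were those of the transketolase gene Tkt (-0.09, SE 0.07), the transaldolase gene Taldo1 (0.10, SE 0.09) and the ribose phosphate isomerase gene Rpia (0.12, SE 0.12). H6pd, which uses the same pool of glucose 6-phosphate as G6pc inside the endoplasmic reticulum, differed by -0.03 (SE 0.10).

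Of the 4 relatives of the phosphatase and the transporter, Slc37a1 (0.08, SE 0.07), Slc37a3 (0.06, SE 0.07) and Slc37a2 (0.06, SE 0.10) were above 0 and G6pc2 below. Of 12 genes of hexose transport, fructose and galactose 6 were above 0. Slc2a2, the GLUT2 transporter through which glucose crosses the hepatocyte membrane, read 11.59, 11.71 and 12.19 in KO and 12.18, 12.05 and 12.00 in WT (difference -0.25, SE 0.14). KO 431 lay above all WT arrays and the other KO arrays below them, and the difference was -0.43 without KO 431 and -0.13 without KO 427. The fructose enzymes Khk, ketohexokinase (-0.25, SE 0.11, and -0.14 without KO 429), and Tkfc, triokinase (-0.24, SE 0.09), had negative differences of like size, and the Tkfc groups did not overlap.

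Of 43 transcriptional regulators 23 were above 0 and 20 below (median 0.01). Foxa1, a forkhead factor of hepatocyte identity, had the smallest p of the 161 genes and read 8.76, 8.35 and 8.40 in KO and 9.25, 9.02 and 9.53 in WT, a difference of -0.76 (SE 0.15, adjusted p = 0.434). Foxa2 differed by -0.61 (SE 0.23, and -0.37 without KO 431) with overlapping groups, and Klf15, a factor of amino acid breakdown and gluconeogenesis in fasting, by 0.36 (SE 0.10) with all KO arrays above all WT arrays. Foxo1, Creb1, Crtc2 and Hnf4a, which act on the G6pc and Pck1 promoters, differed by -0.08, 0.03, 0.00098 and -0.02, with SEs from 0.07 to 0.12.

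Of 20 genes of insulin and glucagon signalling 13 were above 0 (median 0.05). Prkar2a, a regulatory subunit of protein kinase A, differed by 0.40 (SE 0.09, limma adjusted p = 0.698) and Akt1 by 0.18 (SE 0.07). The insulin receptor gene Insr differed by -0.16 (SE 0.07). Insr means, 6.38 in KO and 6.54 in WT, lay near 6.51, the 40th percentile of the mean over all probe sets. The groups did not overlap for 4 of the 20, Prkar2a, Akt1, Insr and Prkar1a (0.13, SE 0.07), beside 9.57% of all probe sets. Gcgr, the glucagon receptor gene, differed by -0.02 (SE 0.07) and Irs2, an insulin receptor substrate, by 0.02 (SE 0.09). Of 15 genes of the fasting and glucocorticoid response 6 were above 0 and 9 below, and the range was the widest, from -1.26 to 0.65. Among genes that glucocorticoids induce, Tat, which starts tyrosine breakdown (0.43, SE 0.13, no overlap), Tsc22d3 (0.65, SE 0.21) and Per1 (0.31, SE 0.14) were above 0. Fkbp5 (-0.16, SE 0.16) and Dusp1 (-0.38, SE 0.27) were below 0, with SEs large beside their differences. From the same list, Tdo2 (-0.11, SE 0.07), Cpt1a (-0.25, SE 0.09) and Angptl4 (-0.47, SE 0.25) were also below 0. Groups did not overlap in 3 of the 15, Tat (KO above WT), Cpt1a and Tdo2 (both KO below WT), beside 9.57% of all probe sets. Lpin1, a phosphatidate phosphatase and coactivator induced by fasting, differed by -1.26 (SE 0.45). Of 9 carbohydrate-responsive lipogenic genes 2 were above 0, the elongase gene Elovl6 (0.65, SE 0.19, no overlap) and the fatty acid synthase gene Fasn (0.35, SE 0.18, but 0.16 without WT 428 and 0.54 without WT 426). Txnip, which glucose induces, differed by -0.12 (SE 0.15).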

How the data were processed

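Expression was measured in 3 KO and 3 WT liver samples, grouped by their titles. Per the labels' protocols, biotin-labelled cRNA was prepared by the standard Affymetrix procedure. The deposited table holds log2 values, read as such because they run from 5.38 to 14.69 and a 16-bit reading cannot exceed 11.1 in natural log. The background correction, normalization, summarisation and software that the authors used are not stated in the labels, and the deposited log2 values were used unchanged. Of 16395 rows, 64 AFFX controls were left out. Each of the other 16331 is named by an Entrez number; GEO's platform annotation gave 1 symbol for 15644, several for 0 and none for 687, and 15617 matched RefSeq's GRCm38.p6 gene table.

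KO was compared with WT by limma 3.58.1 (R 4.3.3; lmFit, eBayes, two-sided, 4 residual and 4.85 prior degrees of freedom) with p-values adjusted after Benjamini and Hochberg across the 16331 probe sets, and an adjusted p under 0.05 counted as a call. The fit was tested on simulated data. The number of arrays limits the precision (median SE 0.0847). Alternatives were quantile normalization, median centring, a filter at the 40th percentile of the mean, a variance trend, array weights and left-out arrays. The members and lists were chosen with earlier results of these data known. From each list the 3 genes with the smallest p are named. Slc37a2, H6pd, Pck2, Fbp2, Foxo1, Creb1, Crtc2, Hnf4a, Gcgr, Irs2, Fkbp5, Dusp1 and Per1 were added for their roles after the values were seen. Tdo2, Cpt1a, Angptl4 and Prkar1a were also added after the values were seen. Plots used matplotlib 3.10.9 (Python 3.11.15).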

Additional observations from a re-analysis of the deposited data

How the results depend on the processing

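The G6pc difference was above 0 in all 12 alternative fits (0.87 to 1.05), with a limma adjusted p from 0.00443 to 0.206. It passed in 7 of them. When 1 array was left out it ran from 0.87 to 1.01, and it did not pass without KO 427 (0.98, adjusted p = 0.0617), KO 429 (0.94, 0.114), KO 431 (0.89, 0.206), WT 426 (0.92, 0.169) or WT 428 (0.87, 0.0894). The cause was not tested. The count of 4 called probe sets became 0 to 4 with 1 array left out, 8 with array quality weights, 8 without WT 430 and KO 427 together and 8 at an adjusted p under 0.1. The count of 0 called genes in the surrounding lists became 1 (Lpin1) without WT 430 and KO 427 together.

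With 1 array left out, the differences that changed sign ran from -0.0944 to 0.112 for Slc37a4, -0.0446 to 0.0892 for G6pc3, -0.0501 to 0.0114 for Fbp1, -0.0286 to 0.146 for Pcx and -0.153 to 0.0618 for Gckr, and that of Fbp1 was 0.0078 without WT 430 and KO 427 together. The cause was not tested. The differences of Pck1 (0.22 to 0.56), Pklr (-0.43 to -0.19) and Ppargc1a (-0.43 to -0.24) kept their sign in all 12 fits. The change of G6pc relative to Pck1 ran from 0.32 without WT 428 to 0.83 without WT 430 and KO 427 together, and that relative to the 7 other genes stayed above 0.81 in all 12 fits. The array numbers alternate between WT and KO from 426 to 431. The labels name no pairs, so no paired analysis was run.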

Other observations

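For a few genes with wide spread, KO 427 lay apart from the other KO arrays. They were picked after their values were seen, so they are given as values only and stand for no group of genes. Lpin1 read 10.85 on KO 427, but 9.15 on KO 429 and 8.97 on KO 431, against 10.47, 10.83 and 11.46 on WT arrays 426, 428 and 430. Igfbp1, a liver-secreted binding protein that insulin represses, read 10.42 on KO 427, but 12.40 on KO 429 and 12.29 on KO 431, against 11.04, 11.66 and 10.82 on the WT arrays. KO 427 lay within the WT range for Lpin1 and below it for Igfbp1, whereas KO 429 and KO 431 lay below the WT range for Lpin1 and above it for Igfbp1. Cpt1a (difference -0.25, KO SD 0.05), from the same list as Lpin1 and Igfbp1, and Klf15 (difference 0.36, KO SD 0.08) had KO arrays close together. KO 427 is also the array with skeletal muscle transcripts (mean of 5 markers 7.08, against 6.21 to 6.31 on the other arrays), and Lpin1 is expressed in muscle. The part of these transcripts in the values was not tested.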
